A study of Homo sapiens with 4 samples.

Results

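The AP-1 transcription factor subunits were followed in LM2 cells after knockdown of hnRNPM and in control LM2 cells. The genes were taken by name: JUN, JUNB, JUND, FOS, FOSB, FOSL1, FOSL2, ATF3, MAFF and BATF3. Of these 10 genes, 9 were found among the 36525 genes of the deposited table, and MAFF was not analysed here. LM2 is a clonal, lung metastatic line derived from MDA-MB-231, a mesenchymal human breast cancer line. The labels give 2 libraries of LM2 cells with hnRNPM knockdown and 2 libraries of control LM2 cells, all collected 48 h after plating. They call the silencing agent an shRNA in one place and an siRNA in another, and no label tells whether replicates were grown separately, so p-values rest on a spread between libraries that may be purely technical. The study concerned hnRNPM, an RNA-binding regulator of alternative splicing, and the question here is how the transcript levels of AP-1 subunits differed after its knockdown.

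AP-1 is a dimer of basic leucine zipper (bZIP) proteins. A JUN protein pairs with another JUN protein, with a FOS protein or with an ATF-type partner, and the pair binds short DNA elements in the control regions of its targets. JUN and FOS are textbook immediate early genes, induced within minutes by growth factor and stress kinases, whereas FOSL1 (FRA1) is the FOS protein best known from mesenchymal, invasive breast cancer cells. JUND and JUNB can oppose JUN in growth control, ATF3 is a stress-induced subunit that often represses, and BATF3 is a short subunit without the activation domain of JUN or FOS.

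AP-1 proteins bind elements such as TGACTCA, and pairs with ATF-type subunits also bind TGACGTCA or the variant TGACATCA. The promoters of the subunits were therefore searched for these elements, the first as TGANTCA with any base as N. The sequences here are shown because JUN and JUND, paralogs that went in opposite directions, and ATF3 and FOSL2 each hold one of them in the window from 250 bases before to 50 bases after the start. They come from RefSeq (build GRCh38.p14), capitals mark the element, and each is written along the gene's own strand. The JUN stretch is chr1:58784071-58784150 on the minus strand, with TGACATCA beginning 67 bases before the start. The ATF3 stretch is chr1:212565248-212565327 on the plus strand, with the same element 123 bases before the start. The JUND stretch is chr19:18281779-18281858 on the minus strand, with TGACGTCA 200 bases before the start. The FOSL2 stretch is chr2:28392851-28392879 on the plus strand, with TGACTCA beginning at base 5 of the transcript.
JUN: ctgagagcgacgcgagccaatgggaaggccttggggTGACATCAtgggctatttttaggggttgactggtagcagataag
ATF3: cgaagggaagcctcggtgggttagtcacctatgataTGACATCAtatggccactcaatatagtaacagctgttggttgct
JUND: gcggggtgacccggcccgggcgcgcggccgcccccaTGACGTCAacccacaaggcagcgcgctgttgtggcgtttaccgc
FOSL2: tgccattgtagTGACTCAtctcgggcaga

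Both strands were searched in 35116 promoter entries, of which 2.61% held TGACATCA, 1.85% TGACGTCA and 7.71% TGANTCA (N is any base; no match in a subunit overlapped another). RefSeq entries were matched by symbol for 7 of the 9 subunits, and BATF3 and FOSL1 had none. Of the 7, only FOSL2 held TGANTCA. JUNB, FOS and FOSB held none of the 3 elements, and none of the 7 held the CArG box of serum response factor, which 1.29% of all entries held, within this window. ATF3 has a second entry, at another start, which held none of them. JUN, whose transcript fell, and ATF3, whose transcript rose, both carried TGACATCA. A match is a stretch of letters, and binding was not measured. The part of these elements in the differences of AP-1 subunits was not tested.

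HNRNPM itself stood at 11.5 and 12.95 RPKM in the knockdown libraries, against 88.6 and 102 RPKM in the control libraries (RPKM is reads per kilobase of transcript and per M reads). The steps of low values gave 1 read total per group, so replicates were not scaled to their own depth. Summed RPKM was 163078 and 180958 in the knockdown libraries, against 162466 and 187293 in the control libraries. SDs and SEs on values as deposited include that difference between replicates. HNRNPM did not overlap between the groups, and its mean was 7.80-fold lower after knockdown. Depth, estimated from the steps of low RPKM values, was 16.5 M and 18.3 M reads in the knockdown libraries, against 23.0 M and 26.6 M in the control libraries; intervals for counting error are not given, since RPKM values are not counts. VIM, CD44, CAV1, AXL, SPARC and FN1, which mark the mesenchymal line, lay between 47.4 and 760 RPKM in every library. Of these 6, 2 rose, SPARC 2.55-fold and CAV1 1.51-fold, where 14.7% of all tested genes were called higher. VIM (log2 fold change −0.24), CD44 (−0.32), AXL (−0.02) and FN1 (0.28) did not pass. VIM and CD44 were lower and FN1 higher in both knockdown libraries than in either control library. After median-ratio scaling of the libraries VIM and CD44 were called lower and AXL and FN1 higher. The hormone receptor gene PGR was listed at 0 and ESR1 reached at most 0.0322 RPKM. Of 8 markers of leukocytes, endothelium and luminal epithelium, 7 were in the table. Their summed level was 23.8 and 26.5 RPKM in the knockdown libraries, against 15.2 and 17.7 RPKM in the control libraries. The keratin genes KRT8 and KRT18 were the 2 that rose among the 4 tested, again beside 14.7% of all tested genes. KRT19 (log2 fold change −0.015) and GATA3 (0.011) did not pass. The leukocyte genes CD3E and PTPRC were at or below 0.0158 RPKM in every library, CD3E being listed at 0 in 3 of the 4, and the endothelial gene CDH5 reached at most 0.0451 RPKM. CDH1, the epithelial cadherin, had 0.717 and 0.990 RPKM after knockdown, against 0.0774 and 0.0629 RPKM in control cells. EPCAM, another epithelial gene, had 1.11 and 1.18 RPKM after knockdown, against 1.25 and 0.910 RPKM in control cells, and did not pass. The part of these marker genes in the differences of AP-1 subunits was not tested. In bulk RNA, fewer cells that express a gene and less RNA per cell cannot be told apart.

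Of the 9 subunits, 7 had a mean of at least 1 RPKM and were tested. JUN, JUNB, FOSL1 and BATF3 fell after knockdown, JUND and ATF3 rose, and FOSL2 did not pass (limma on log2(RPKM + 0.5), Benjamini-Hochberg adjusted p under 0.05 over 13627 genes). FOS and FOSB lay under the filter. That is 4 lower and 2 higher of 7, where 21.8% of all tested genes were called lower and 14.7% higher. After median-ratio scaling of the libraries the counts were 4 lower and 3 higher, where 30.2% of all tested genes were called lower and 30.8% higher. The median log2 fold change of the 7 was −0.56, and that of all tested genes −0.07. Fold changes on the log2(RPKM + 0.5) scale are knockdown minus control, and they understate the change of low genes. Without the filter none of the 7 passed in limma (adjusted p from 0.0555 for JUN to 0.98 for FOSL2), and with a minimum fold of 1.5 JUN alone did (limma adjusted p = 0.0185). With median-ratio scaling and no filter, an alternative chosen after seeing the data, 2 subunits were called higher and 5 lower, FOS among the latter. In that fit 4424 of 31636 genes were called higher and 4409 lower. Whether the groups overlapped is given below as description alone, since the share of all genes without overlap was not counted. With 2 libraries against 2, genes that did not pass can separate as well, as the bZIP genes ATF5 and DDIT3 did.

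**Figure D1:**
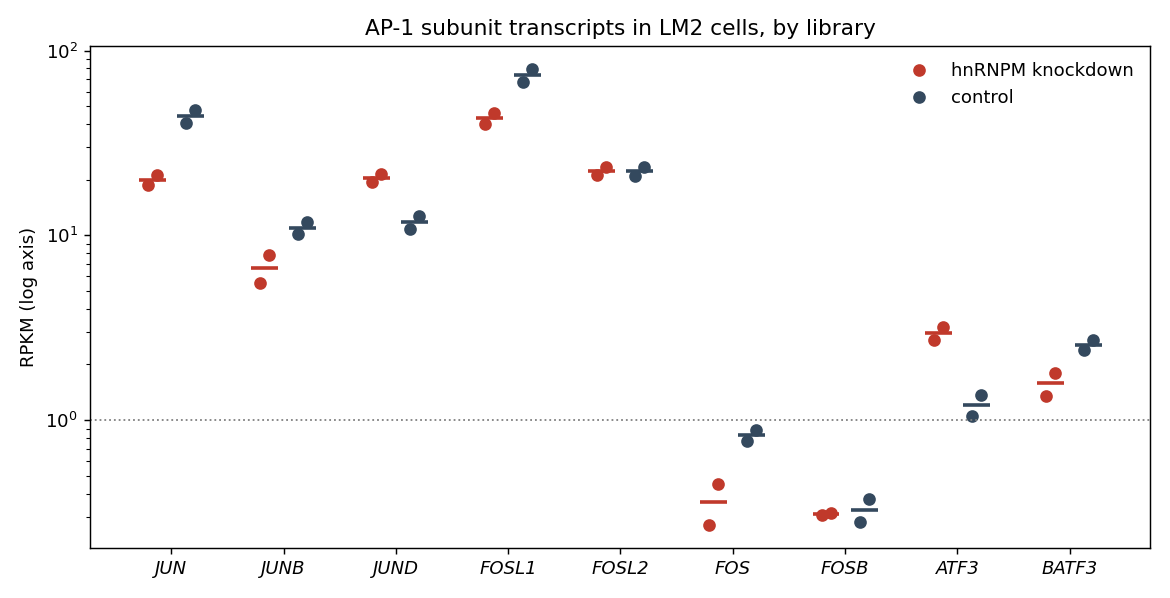
RPKM (log axis) of 9 AP-1 subunits in each hnRNPM knockdown library (red) and control library (dark blue); points are libraries, bars are group means (n = 2 each), and the dotted line is the filter of 1 RPKM. JUN, JUNB, FOSL1, FOS and BATF3 are lower and JUND and ATF3 higher in both knockdown libraries than in either control library, while FOSL2 and FOSB overlap. The share of all genes without overlap was not counted.

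JUN, the founding subunit and the strongest transactivator of its family, had 18.8 and 21.2 RPKM in the knockdown libraries, against 40.7 and 47.8 RPKM in the control libraries. Both knockdown libraries lay below both control libraries, at roughly the level that JUND reached in the same cells. The means were 19.98 ± 1.72 RPKM after knockdown and 44.2 ± 5.02 RPKM in control cells (SD, n = 2 each), so JUN was 2.21-fold lower. On the log2 scale it changed by −1.13 ± 0.17 (SE; limma adjusted p = 2.09e-09), with the smallest p of the tested subunits. With 1 library left out, limma gave JUN an adjusted p from 0.00228 to 0.0154. Such a fit sets 1 library against 2, so the lone library is assumed to vary like the other group, and these values for JUN and the other subunits describe how a call moves rather than support it.

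JUND, the JUN paralog known to be expressed broadly and to change little on stimulation, went the other way. It had 19.3 and 21.5 RPKM in the knockdown libraries, against 10.9 and 12.7 RPKM in the control libraries. The lower knockdown library was above the higher control library. JUND averaged 20.4 ± 1.53 RPKM after knockdown and 11.8 ± 1.32 RPKM in control cells (SD, n = 2 each), 1.73-fold higher, or 0.77 ± 0.18 on the log2 scale (SE; limma adjusted p = 8.55e-05). The call was lost without knockdown replicate 2 (log2 fold change 0.69) and without control replicate 1 (0.66). In both fits the median of all tested genes moved down as well.

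JUNB, the third JUN paralog, which can antagonise JUN, had 5.54 and 7.84 RPKM in the knockdown libraries, against 10.2 and 11.8 RPKM in the control libraries. The groups did not overlap. The means were 6.69 ± 1.63 RPKM after knockdown and 10.995 ± 1.19 RPKM in control cells (SD, n = 2 each), 1.64-fold lower, or −0.69 ± 0.18 on the log2 scale (SE; limma adjusted p = 0.000482). JUNB no longer passed without knockdown replicate 1 (−0.46, limma adjusted p = 0.349), control replicate 1 (−0.80, limma adjusted p = 0.0615) or control replicate 2 (−0.59, limma adjusted p = 0.12). In GENCODE 29, JUNB shares 259 exon bases with HOOK2 on the opposite strand. Whether reads were counted by strand is not stated, so reads of that stretch could belong to either gene. HOOK2 itself was low, at 1.46 and 1.73 RPKM after knockdown and 1.84 and 2.11 RPKM in control cells.

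RPKM is scaled per length, so the 3 JUN genes can be set against each other within a library, where depth cancels. JUND made up 44.3% and 42.6% of the summed JUN family RPKM in the knockdown libraries, against 17.6% in each control library. JUN made up 43.0% and 41.9% after knockdown, against 65.9% and 66.1% in control cells. The share of JUNB was 12.7% and 15.5% after knockdown, against 16.5% and 16.4% in control cells. JUN was thus the leading JUN transcript in both control libraries, whereas JUN and JUND were level in both knockdown libraries. The JUND to JUN ratio of RPKM was 1.03 and 1.01 after knockdown, against 0.267 and 0.266 in control cells, so the mean ratio was 3.84-fold higher after knockdown and the libraries of a group gave nearly the same ratio. The summed RPKM of the family was 43.6 and 50.5 in the knockdown libraries, against 61.7 and 72.4 in the control libraries. With 2 libraries against 2, the smallest two-sided p that an exact permutation test allows is 0.333, so shares and ratios are given without a test.

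**Figure D2:**
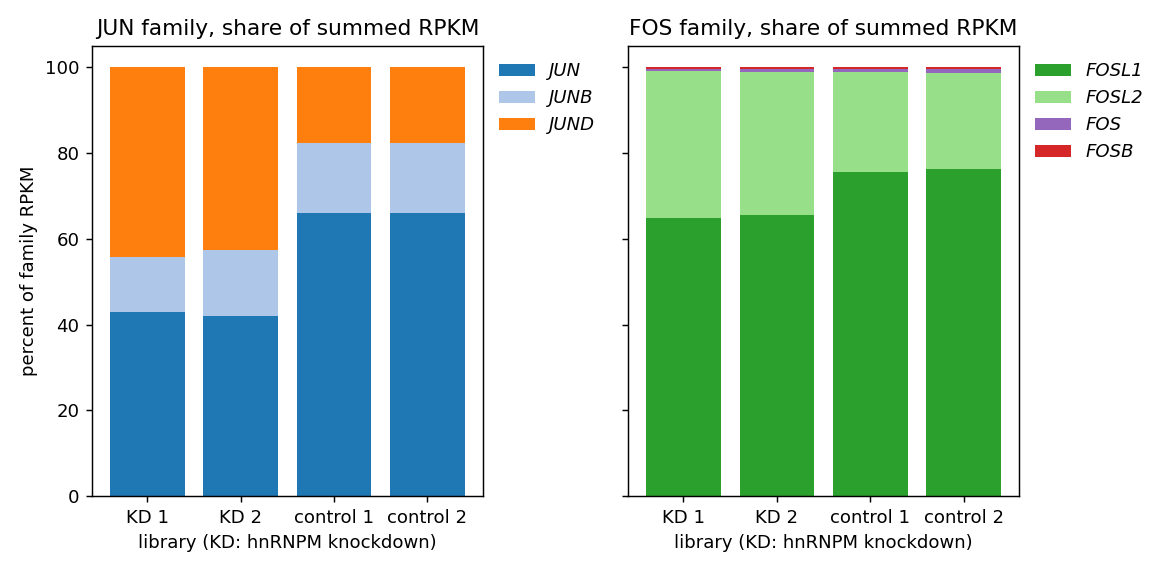
Share of each subunit in the summed RPKM of the JUN family (left panel) and of the FOS family (right panel), as percent, with 1 bar per library and the knockdown libraries at the left of each panel. JUND takes 44.3% and 42.6% of the JUN family in the knockdown bars and 17.6% in each control bar, and FOSL1 is the largest part of the FOS family in every bar.

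FOSL1, the most abundant AP-1 subunit in both groups, had 40.2 and 46.0 RPKM in the knockdown libraries, against 67.7 and 79.7 RPKM in the control libraries. The groups were well apart, and even the knockdown level was above that of any other subunit in those libraries. FOSL1 averaged 43.1 ± 4.10 RPKM after knockdown and 73.7 ± 8.51 RPKM in control cells (SD, n = 2 each), 1.71-fold lower, or −0.77 ± 0.17 on the log2 scale (SE; limma adjusted p = 6.58e-05). The call was lost without knockdown replicate 1 (−0.67) and without control replicate 2 (−0.65). In both fits the median of all tested genes moved up as well.

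FOSL2 (FRA2), its nearest relative, had 21.2 and 23.3 RPKM in the knockdown libraries, against 20.9 and 23.5 RPKM in the control libraries. The groups overlapped. The means were 22.2 ± 1.55 RPKM after knockdown and 22.2 ± 1.86 RPKM in control cells (SD, n = 2 each), with a log2 fold change of 0.0041 ± 0.17 (SE; limma adjusted p = 0.988). After median-ratio scaling it was 0.080 ± 0.022 (SE; limma adjusted p = 0.0423), the smallest change among the tested subunits. The FOSL1 to FOSL2 ratio was 1.90 and 1.97 in the knockdown libraries, against 3.24 and 3.39 in the control libraries. FOSL1 held 64.9% and 65.6% of the FOS family RPKM after knockdown, against 75.5% and 76.3% in control cells.

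FOS and FOSB, the FOS proteins with strong activation domains, were close to silent. FOS had 0.271 and 0.448 RPKM in the knockdown libraries, against 0.774 and 0.885 RPKM in the control libraries. This corresponds to 26 and 43 estimated reads after knockdown and 105 and 120 in control cells. FOS did not overlap between the groups, and its mean was 2.31-fold lower after knockdown. Without a filter limma gave FOS a log2 fold change of −0.64 ± 0.15 (SE; adjusted p = 0.118), and with median-ratio scaling as well, an alternative chosen after seeing the data, −0.60 ± 0.12 (SE; limma adjusted p = 0.0452). FOSB had 0.305 and 0.314 RPKM (34 and 35 estimated reads) after knockdown, against 0.280 and 0.375 RPKM (44 and 59 estimated reads) in control cells. FOSB overlapped between the groups, and limma without a filter gave a log2 fold change of −0.029 ± 0.089 (SE; adjusted p = 0.864). FOS made up at most 0.864% and FOSB at most 0.493% of the FOS family RPKM in any library.

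ATF3, the stress-induced subunit, had 2.70 and 3.20 RPKM in the knockdown libraries, against 1.06 and 1.37 RPKM in the control libraries. The knockdown libraries held 320 and 380 estimated reads, against 177 and 230 in the control libraries. Both knockdown libraries lay well above both control libraries, and the means were 2.95 ± 0.36 RPKM after knockdown and 1.21 ± 0.22 RPKM in control cells (SD, n = 2 each). That is 2.43-fold higher, or 1.01 ± 0.19 on the log2 scale (SE; limma adjusted p = 9.03e-07). With 1 library left out, and the same assumption, the limma adjusted p of ATF3 lay between 0.000221 and 0.0223. Relative to JUN, ATF3 stood at 0.144 and 0.151 after knockdown, against 0.0259 and 0.0287 in control cells.

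BATF3, a small bZIP partner of JUN proteins that is best known from dendritic cells, had 1.35 and 1.80 RPKM in the knockdown libraries, against 2.40 and 2.70 RPKM in the control libraries. These levels rest on 109 and 145 estimated reads after knockdown and 273 and 307 in control cells. The groups did not overlap, and the means were 1.58 ± 0.32 RPKM after knockdown and 2.55 ± 0.21 RPKM in control cells (SD, n = 2 each), 1.62-fold lower. On the log2 scale BATF3 changed by −0.56 ± 0.19 (SE; limma adjusted p = 0.01). The call was lost without knockdown replicate 1 (−0.40, limma adjusted p = 0.335), control replicate 1 (−0.63, limma adjusted p = 0.0698) or control replicate 2 (−0.49, limma adjusted p = 0.128). ATF3 and BATF3 are neighbours, 65.6 kb apart on chromosome 1 (GRCh38), and they changed in opposite directions.

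**Figure D3:**
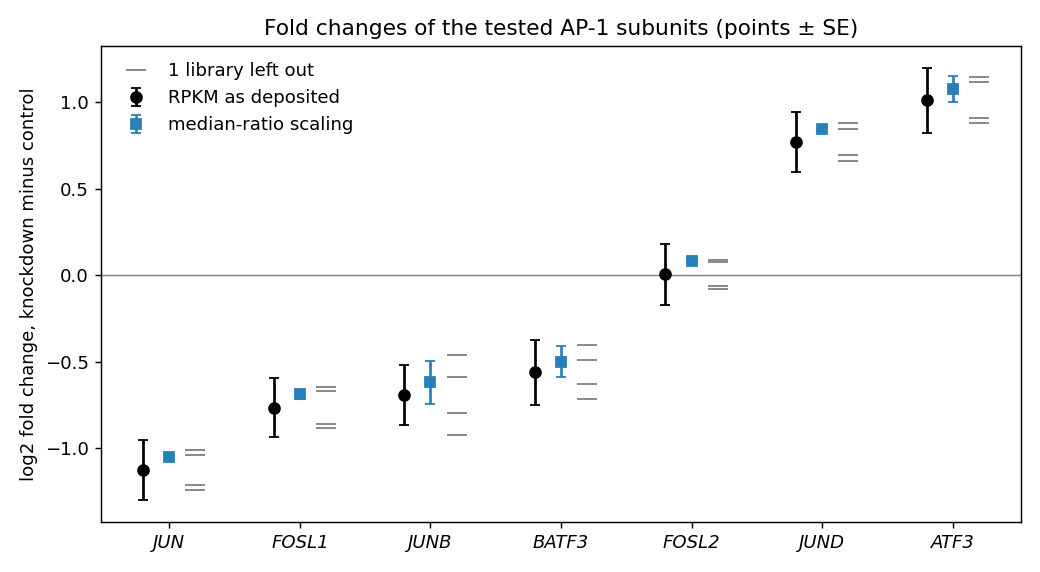
Log2 fold change (knockdown minus control) of the 7 tested AP-1 subunits on RPKM as deposited (black, ± SE) and after median-ratio scaling (blue, ± SE), with the values of the 4 fits that left out 1 library as grey ticks. JUN, FOSL1, JUNB and BATF3 lie below 0 and JUND and ATF3 above 0 at every mark, whereas FOSL2 lies on both sides.

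By level, the control order was FOSL1, JUN, FOSL2, JUND, JUNB, BATF3, ATF3, FOS and FOSB. JUND and JUNB were close there (11.8 ± 1.32 and 10.995 ± 1.19 RPKM, SD, n = 2 each). Within the control libraries the JUND to JUNB ratio was 1.070 and 1.075. After knockdown FOSL1 was still first. FOSL2, JUND and JUN followed at 22.2 ± 1.55, 20.4 ± 1.53 and 19.98 ± 1.72 RPKM (SD, n = 2 each). The ranges of these 3 neighbours overlapped, though each knockdown library gave the same order. JUNB came next, then ATF3 and BATF3 in the reverse of their control order, and FOS and FOSB overlapped at the low end.

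Exon numbers and 3′ UTR elements were not used in the choice of the subunits, and they differ between subunits. JUN and JUNB have 1 exon in every GENCODE 29 transcript, and JUND has 1 or 2, and JUN and JUND went in opposite directions. In the 3′ UTR, the pentamer ATTTA is the core of AU-rich elements that mark many short-lived transcripts. FOS held 5 copies (6.20 per kb), and FOSL2, with a 3′ UTR of 4864 bases, held 9. FOS was alone among the 9 subunits in holding the nonamer ATTTATTTA, which 7.66% of 9022 tested genes held. JUN and ATF3, with 3 copies each, changed in opposite directions, at 2.33 and 2.45 copies per kb. Per kb, JUNB held 4 copies, JUND 1.47, FOSL1 1.19, FOSL2 1.85, FOSB 1.38 and BATF3 2.68, where the median of the tested genes was 1.79. Stability of the transcripts was not measured, and the part of exon number or ATTTA copies in the differences was not tested.

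The genes with the 4-library pattern most like that of JUN, by Euclidean distance between centred log2(RPKM + 0.5) values, were ARAP1-AS1, H1-10-AS1, DNAJB6, UNG and MLEC, at distances from 0.0155 to 0.0342. DNAJB6, an HSP40 co-chaperone, had 4.37 and 4.90 RPKM after knockdown, against 9.95 and 11.7 RPKM in control cells. UNG, the uracil-DNA glycosylase, had 11.7 and 13.1 RPKM after knockdown, against 25.2 and 30.5 RPKM in control cells. ARAP1-AS1 and H1-10-AS1 are antisense genes, whose reads cannot be told from those of their partner genes unless strand was used. With 4 libraries in 2 groups, likeness says little beyond a similar fold.

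Among 28 other bZIP factors that pair or compete with AP-1 subunits, 16 were tested. Of these, 4 rose and 3 fell, while 9 did not pass, against 14.7% of all tested genes called higher and 21.8% lower. Their median log2 fold change was 0.00013, beside −0.07 for all tested genes. MAFK, a small MAF protein without an activation domain, rose 2.39-fold, with 12.6 and 14.4 RPKM after knockdown, against 5.24 and 6.01 RPKM in control cells (limma adjusted p = 3.02e-10). NFE2L2 (NRF2), the antioxidant response factor that pairs with small MAF proteins, rose 1.54-fold, and CEBPD 1.47-fold. ATF1 rose as well, with a log2 fold change of 0.42. CEBPG fell 1.82-fold, and the cAMP-responsive factor CREM 1.60-fold. JDP2, a repressor that dimerises with JUN proteins, had 1.08 and 1.12 RPKM after knockdown, against 2.002 and 2.58 RPKM in control cells, a 2.08-fold fall (limma adjusted p = 0.000233). JDP2 lies 146 kb from FOS on chromosome 14 (GRCh38). After median-ratio scaling 6 of the 16 rose and 5 fell, against 30.8% and 30.2% of all tested genes.

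Of 32 kinases and regulators upstream of AP-1, 24 were tested. Here 3 rose and 6 fell, while 15 did not pass, shares near the 14.7% and 21.8% of all tested genes. The median log2 fold change was −0.03. After median-ratio scaling 10 rose and 10 fell, against 30.8% and 30.2% of all tested genes. MAP2K3, an activator of p38 kinases, had 51.0 and 54.6 RPKM after knockdown, against 18.3 and 20.9 RPKM in control cells, a 2.69-fold rise (limma adjusted p = 2.62e-14). MAP2K4, which activates JNK and p38, rose 1.84-fold, and MAP3K1, a kinase above it, 1.71-fold. MAPK13 (p38δ) fell 2.26-fold, MAPK14 (p38α) had a log2 fold change of −0.45 and MAPK9 (JNK2) one of −0.44, both past the threshold. MAPK8 (JNK1), the other JNK gene tested, did not pass, at −0.26. After median-ratio scaling MAPK8 was called lower as well (−0.19, limma adjusted p = 0.0103). The ERK-activated kinase RPS6KA1 fell 1.92-fold, MRTFB, a coactivator of serum response factor, 1.65-fold, and ELK3 had a log2 fold change of −0.52. Neither SRF (0.18) nor ELK1 (−0.05) passed. After median-ratio scaling SRF was called higher (0.26, limma adjusted p = 0.00243), while ELK1 again did not pass. Phosphorylation, which sets the activity of these kinases and of JUN, was not measured.

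Of 25 other immediate early genes, 15 were tested, and 3 rose and 5 fell, while 7 did not pass, against 14.7% of all tested genes called higher and 21.8% lower. The median log2 fold change was −0.07. CCN1, a matricellular gene, rose 2.12-fold, the Krüppel-like factor gene KLF4 1.85-fold, and TRIB1 had a log2 fold change of 0.46. EGR1, which like FOS is a direct serum response factor target, had 0.846 RPKM in each knockdown library, against 1.79 and 2.01 RPKM in the control libraries. Its knockdown level is below the filter of 1 RPKM, which EGR1 passed through its control libraries, so its place among the 5 rests partly on the filter. MYC fell 1.57-fold, KLF2 1.59-fold and IER2 1.41-fold, and IER5 had a log2 fold change of −0.47. After median-ratio scaling 6 of the 15 rose and 5 fell, against 30.8% and 30.2% of all tested genes.

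Genes known as AP-1 targets in other settings were followed as a list of 24, of which 14 were tested. Here 3 rose and 5 fell, while 6 did not pass, against 14.7% of all tested genes called higher and 21.8% lower. The median log2 fold change was −0.12. MMP1, the interstitial collagenase whose promoter holds a classical AP-1 element, had 1.39 and 1.23 RPKM after knockdown, against 21.3 and 24.4 RPKM in control cells. That 17.4-fold fall was the largest in the list (limma adjusted p = 1.09e-93). VEGFA, the endothelial growth factor, fell 3.27-fold and PLAU, the urokinase gene, 1.56-fold, while the cyclin gene CCND1 had a log2 fold change of −0.48. EZR, which codes for the membrane linker ezrin, rose 1.80-fold, and the EGF receptor ligand gene HBEGF had a log2 fold change of 0.52. CXCL8 (0.13), IL6 (−0.04), TGFB1 (0.06) and TIMP1 (−0.19) did not pass. With median-ratio scaling CXCL8 was called higher and TIMP1 lower, while IL6 and TGFB1 again did not pass. RefSeq promoter entries were matched for 12 of the 20 targets in the table, and CXCL8, EZR, MMP10 and PLAUR held TGANTCA in the window. CXCL8 and EZR held it as TGACTCA, PLAUR as TGAGTCA and MMP10 as TGAATCA. EZR rose, CXCL8 and PLAUR did not pass on values as deposited, and MMP10 was under the filter. PLAUR was called lower with median-ratio scaling. After median-ratio scaling 5 of the 14 rose and 7 fell, against 30.8% and 30.2% of all tested genes.

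**Figure D4:**
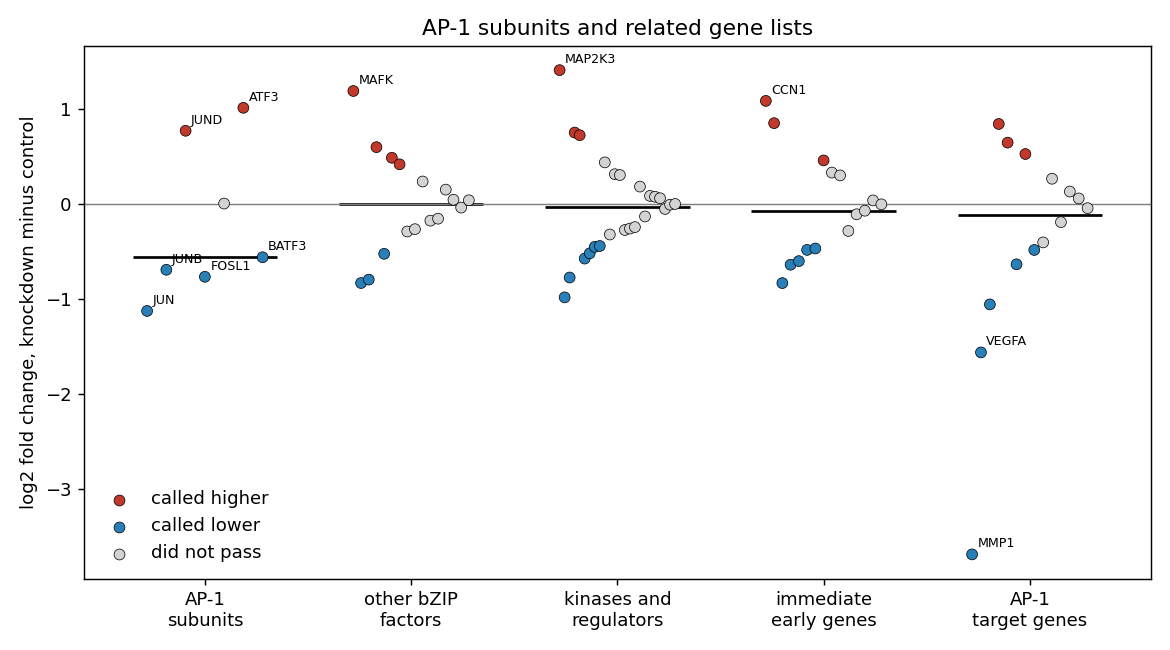
Log2 fold change (knockdown minus control) of each tested gene among the AP-1 subunits and 4 related lists; red points were called higher, blue points lower and grey points did not pass (limma adjusted p under 0.05), and black bars are list medians. The 4 related lists have medians between −0.12 and 0.00013 with calls on both sides of 0, and MMP1 lies lowest.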

How the data were processed

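RNA of 4 LM2 libraries was sequenced. Per the labels, total RNA was extracted with Trizol and libraries followed standard Illumina protocols. Per the submitters' processing notes, Bowtie 0.12.7 and build hg19 were used; for the counting step, strand use and the RPKM read total, the method was not given in the sources used here. The authors deposited RPKM values, 1 column per library (0 value columns were left unused). Ensembl IDs were matched to current symbols, and genes of chromosomes 20, 21 and 22 were not analysed here. Members and lists were chosen with earlier results of these data known. The named genes are the members, HNRNPM, up to 6 genes per list with the smallest p and the 5 genes nearest to the member with the smallest p; further genes were named once their values had been seen. Some genes that the rule takes from the AP-1 target list are not reported here.

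Values were log2(RPKM + 0.5) for genes with a mean of at least 1 RPKM, tested with limma 3.58.1 in R 4.3.3 on group alone (empirical Bayes with trend, Benjamini-Hochberg over all tested genes, 0.05); the script was tested on simulated data. limma found no spread of variance between genes beyond its trend, so very small p-values rest on a shared variance. RPKM steps gave 1 read total per group, 29.7 M for both knockdown and 41.9 M for both control libraries. At these totals 82.8% of low values were whole within 0.1 read. A subunit's reads were taken as the whole-read solution (within 0.02 read in all 4 libraries) nearest its GENCODE 29 exon length, and used for depth alone. Plain folds are ratios of mean RPKM. No count test was run.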

Additional observations from a re-analysis of the deposited data

How the results depend on the processing

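Of the values of single subunits under the alternatives, 71 kept their direction and their side of the threshold, 21 lost their call, 2 gained one and 4 changed sign. JUN, JUNB, FOSL1 and BATF3 stayed lower and JUND and ATF3 higher in every alternative run. The count called higher was 2, and it was 0 without a filter and with a minimum fold of 1.5, 1 at a mean of at least 5 RPKM (ATF3 is below that level), and 1 to 2 with 1 library left out. The count called lower was 4, and it was 0 without a filter, 1 (JUN) with a minimum fold of 1.5, and 1 to 4 with 1 library left out. In the fits with 1 library left out, the lone library of its group is assumed to vary like the other group. Without a filter HNRNPM itself had a limma adjusted p of 0.0445, and 262 genes were higher and 255 lower, against 2000 and 2964 with the filter. With median-ratio scaling and no filter, 2 subunits were higher and 5 lower, beside 4424 and 4409 of 31636 genes. Median-ratio scaling gave 4192 and 4122 and a median SE of 0.054, against 0.175 on values as deposited. Upper-quartile scaling gave 3200 and 4740, a mean of at least 5 RPKM 1047 and 1321, a minimum fold of 1.5 gave 360 and 479, and leaving out 1 library 693 to 1337 and 1100 to 1907. Over the alternatives, 0 to 5 AP-1 targets were higher and 2 to 7 lower, 0 to 6 and 0 to 7 of the bZIP partners, 0 to 6 and 0 to 6 of the immediate early genes, and 1 to 10 and 0 to 10 of the upstream regulators. FOSL2 changed sign with upper-quartile scaling (−0.011), without knockdown replicate 2 or control replicate 1 (range of the 4 fits −0.080 to 0.088), and FOSB did with median-ratio scaling and no filter (0.0042). Pseudocounts of 0.1 and 1 and a fit without a variance trend changed no subunit's call.

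With the replicate number as a block, 2 subunits were higher and 4 lower, as without it, and over all genes 3109 were higher and 4318 lower. The labels give no pairing, and same-numbered libraries had a correlation of deviations of 0.031. That correlation cannot register an offset common to all genes. Summed RPKM was higher in replicate 2 of both groups, at 180958 against 163078 after knockdown and 187293 against 162466 in control cells. The block takes up such an offset, so its added calls do not show that the libraries were paired. The median SE was 0.0648 with the block, against 0.175 without it. Depth limits FOS and FOSB most, which had 26 to 120 estimated reads per library.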
